A study of Saccharomyces cerevisiae with 6 samples.

Results

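The thioredoxin and peroxiredoxin genes of *Saccharomyces cerevisiae* were followed in RNA-seq read counts from CX01F, a strain evolved for growth on methanol, and CX01, its parent. The set was taken by name and holds 10 of the 6400 named genes of the count table: the peroxiredoxins TSA1, TSA2, AHP1, PRX1 and DOT5, the thioredoxins TRX1, TRX2 and TRX3, and the thioredoxin reductases TRR1 and TRR2. All 10 were found in the table, and all 10 passed the filter on low counts. By the location of their products, 6 are cytosolic (TSA1, TSA2, AHP1, TRX1, TRX2 and TRR1), 3 are mitochondrial (PRX1, TRX3 and TRR2) and 1, DOT5, is nuclear.

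Each strain was represented by 3 cultures, which the labels call biological replicates. Both strains carry one genotype label. It names P. Paox1-SKL and P. Pdas1-skl, as well as P. pDAK, next to B. mMDH3-skl and B. mACT1-skl. It also names P. pPYC and P. sXR, then P. sXDH and P. sXK. PEX5 and S.c MDH2, along with S. cMDH3 and S. Cnde1, are listed too, and PEX31 and PEX32 are marked as deleted (∆PEX31 and ∆PEX32). Cells of both strains went from YPD, a rich medium, to Delft medium, a defined minimal medium, for 16 h, and then to Delft medium with 1% methanol in place of glucose. They were taken at an OD600 near 1.0 from shake flasks at 30 °C and 200 rpm. Whether CX01F is a single clone, and which mutations it carries, is not given in the sources used here.

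Peroxiredoxins are thiol peroxidases that reduce hydrogen peroxide and organic peroxides with a reactive cysteine. In the cytosol the oxidised enzyme is returned to its reduced form by thioredoxin, thioredoxin by thioredoxin reductase, and the reductase by NADPH. Yeast has a cytosolic thioredoxin system (TRX1, TRX2 and TRR1) and a separate mitochondrial one (TRX3 and TRR2). Many of these genes are known targets of Yap1 and Skn7, the transcription factors of the yeast peroxide response.

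Library totals were 52849030 to 62826253 counts in CX01F and 51537969 to 63183824 counts in CX01. Correlations of log2 CPM (read counts relative to the scaled library total) across genes were 0.9987 to 0.9994 between libraries of a strain and 0.8751 to 0.8804 between libraries of different strains. Of the genes marked as deleted, PEX31 gave 1, 0 and 1 counts in CX01F and none in CX01. The limit in CX01 was 0.0475 to 0.0582 CPM per library, here on the unscaled library total. PEX32, also marked as deleted, gave 167 to 230 counts in CX01F and 219 to 279 in CX01, against its label. The strains differed at most genes: edgeR's quasi-likelihood test called 5603 of 6129 tested genes at an adjusted p under 0.05 (91.4%), 2787 higher (45.5%) and 2816 lower (45.9%) in CX01F. With scaling by library size only, the split was 2221 higher and 3407 lower. The median log2 change was -0.82 on chromosome XI and -0.86 on chromosome XV, against 0.02 to 0.26 on the others. No member of the set lies on XI or XV.

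Stretches upstream of 4 members are shown: those of TRR1, TSA2 and TRX2, the members with a Yap1 motif in the window searched, and that of AHP1, the member with 2 stress response elements there. The windows searched were the 300 bases before each start codon in RefSeq R64, on both strands, for TTACTAA and TGACTAA (motifs of Yap1) and for AGGGG (the stress response element of Msn2 and Msn4). Each line below runs 5′ to 3′ on the strand of the gene, from base 300 to base 101 before the start codon, and capitals mark a motif or its reverse complement, none of which overlap here. Coordinates are those of R64, and the build behind the counts is not given in the sources used here.
TRR1, chrIV:1182999-1183198, plus strand: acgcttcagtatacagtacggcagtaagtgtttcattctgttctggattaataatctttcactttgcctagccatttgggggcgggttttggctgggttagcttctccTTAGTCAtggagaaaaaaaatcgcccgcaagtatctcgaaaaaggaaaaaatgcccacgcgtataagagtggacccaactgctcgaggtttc
TSA2, chrIV:1365763-1365962, minus strand: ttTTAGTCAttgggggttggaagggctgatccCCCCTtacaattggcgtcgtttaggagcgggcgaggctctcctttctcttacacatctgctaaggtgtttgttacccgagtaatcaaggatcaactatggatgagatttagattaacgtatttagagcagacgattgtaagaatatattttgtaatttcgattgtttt
TRX2, chrVII:913328-913527, minus strand: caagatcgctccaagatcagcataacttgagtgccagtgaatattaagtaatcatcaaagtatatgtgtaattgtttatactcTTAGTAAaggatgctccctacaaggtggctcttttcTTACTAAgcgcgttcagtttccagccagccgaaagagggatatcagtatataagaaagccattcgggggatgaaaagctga
AHP1, chrXII:368481-368680, plus strand: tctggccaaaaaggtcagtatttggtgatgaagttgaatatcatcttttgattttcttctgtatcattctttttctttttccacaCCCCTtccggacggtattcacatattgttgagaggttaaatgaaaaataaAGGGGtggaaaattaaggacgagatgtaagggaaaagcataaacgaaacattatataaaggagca

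TRX2 held TTACTAA in both orientations, 217 and 181 bases before its start codon. TRR1 held TGACTAA as its reverse complement 192 bases before the start codon, and TSA2 held it 298 bases before. Thus 3 of the 10 windows contained a Yap1 motif, against 11.2% of 6001 coding gene windows of this length (7.82% for TTACTAA and 3.68% for TGACTAA). AHP1 held AGGGG at 215 and 165 bases, 1 in each orientation. Counting AGGGG over all members, 6 of the 10 windows held it (TSA1, TSA2, AHP1, PRX1, TRX3 and TRR2), against 22.2% of all windows. TRX1 and DOT5 held none of the motifs. In windows of 500 bases, 4 of the 10 members held a Yap1 motif, the addition being AHP1 at 494 bases, against 17.0% of 6000 windows. Parts of the windows of TSA1 (41 bases), TRX2 (25 bases) and TRR2 (113 bases) lie inside a neighbouring gene. A match describes the letters only.

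Of the 10 genes, 6 were higher in CX01F, 3 were lower and 1 did not pass the test. All 9 calls sit beside a background of 91.4% of tested genes called, so the number of calls says little about the set, and the sizes and directions carry the description. The cytosolic members had 4 higher and 2 lower, with a median absolute log2 change of 1.07. The mitochondrial members had 1 higher, 1 lower and 1 not called with TMM scaling, but 0 higher and 2 or 3 lower with library size only, upper-quartile scaling or without XI and XV, and their median absolute log2 change was 0.146 with TMM scaling and 0.254 with library size only. Over all tested genes the median absolute log2 change was 0.604 with TMM scaling and 0.643 with library size only. In all 10 genes the libraries of the strains did not overlap, with 6 genes higher and 4 lower in CX01F, beside 45.8% and 46.1% of tested genes that separated in these directions. A change of at least 1 on the log2 scale was passed by 5 of the 10 members, TSA1, AHP1, TRX1, TRR1 and DOT5, against 30.6% of tested genes. The scaling decides this count, which was 3 of 10 with library size only and with upper-quartile scaling (AHP1, TRR1 and DOT5), against 32.3% and 31.7% of tested genes, a share near the background. TSA1, at a log2 of 1.02, also lay under 1 without the genes of XI and XV (0.90) and without CX01 replicate 2 (0.9999). The RNA comes from whole cultures, so fewer cells that express a gene and less RNA per cell cannot be told apart.

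**Figure D1:**
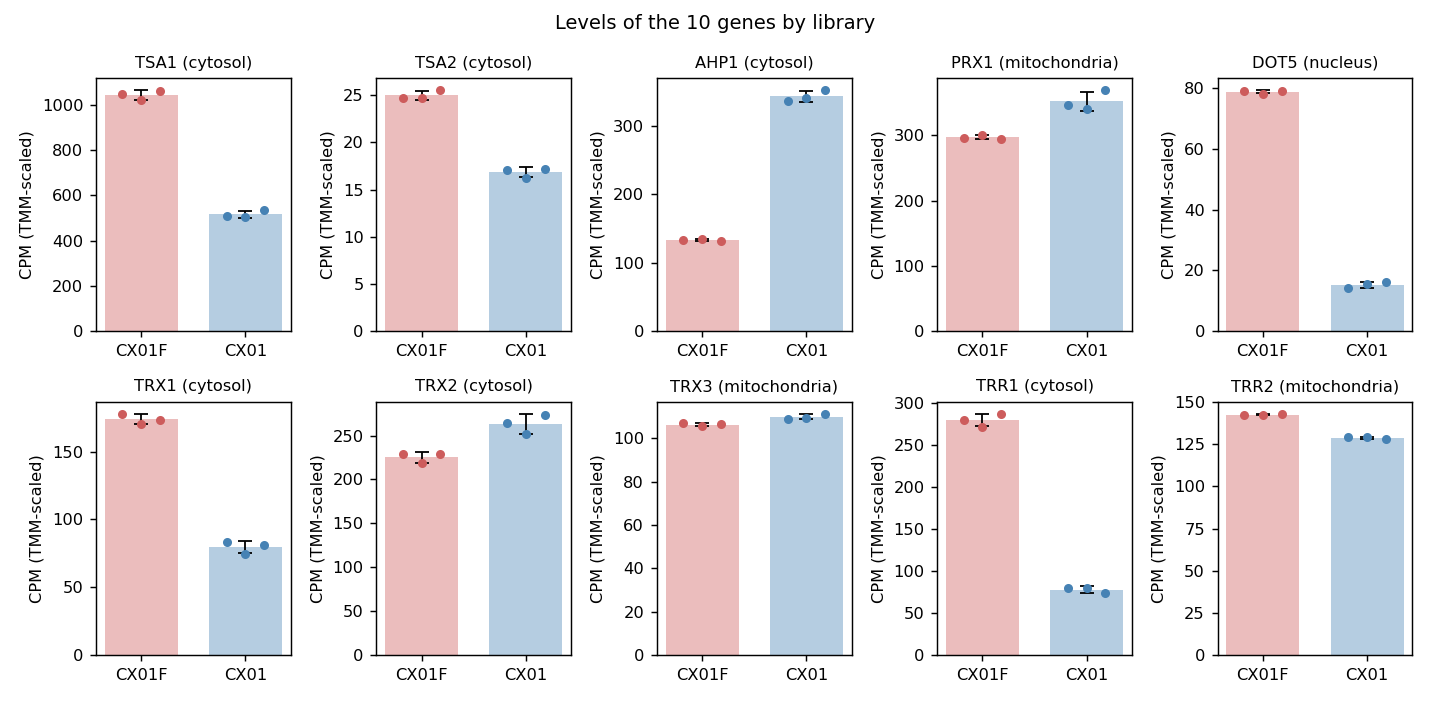
Levels of the 10 genes in each library, as CPM on the TMM-scaled library size. Points are libraries, bars are means and error bars are SD over 3 libraries, with CX01F left of CX01 in each panel and axes that start at 0. In every panel the points of CX01F and CX01 do not overlap, from DOT5, with 78.1 to 79.0 against 14.2 to 16.1 CPM, down to TRX3, with 106 to 107 against 109 to 111 CPM.

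TSA1, the main cytosolic peroxiredoxin, which removes hydrogen peroxide and also acts as a chaperone, had 1049, 1019.6 and 1058 CPM in the CX01F libraries, against 508, 504 and 534 CPM in the CX01 libraries. The libraries of the strains did not overlap, as for 91.9% of tested genes. TSA1 was 2.02-fold higher in CX01F (log2 fold change 1.02, SE 0.0298, edgeR adjusted p = 1.4e-13). TSA2, its close paralog, was far less abundant, at 24.7, 24.7 and 25.5 CPM in CX01F and 17.0, 16.2 and 17.2 CPM in CX01. It was also higher in every CX01F library, by 1.49-fold (log2 0.57, SE 0.0455, adjusted p = 1.8e-08), and by a log2 of 0.36 with scaling by library size only. The coding sequences of TSA2 and TSA1 were 78.5% identical, with a longest shared run of 14 bases. TSA2 had 1213 to 1491 counts in CX01F and 948 to 1100 in CX01, beside 50103 to 61866 in CX01F and 28243 to 34151 in CX01 for TSA1, so TSA1 reads counted for TSA2 would weigh on TSA2, and how reads that map to several places were treated is not given in the sources used here.

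AHP1, a peroxiredoxin that prefers organic hydroperoxides, went the other way. It had 133, 135 and 132 CPM in CX01F and 337, 339.9 and 351 CPM in CX01. Every CX01F library lay below every CX01 library, and AHP1 was 2.57-fold lower in CX01F (log2 -1.36, SE 0.0271, adjusted p = 1.82e-15), the largest fall of the 10. Of all tested genes, 19.8% changed by at least as much in either direction.

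DOT5, the nuclear thiol peroxidase, had the largest rise of the 10. It stood at 78.9, 78.1 and 79.0 CPM in CX01F, against 14.2, 15.5 and 16.1 CPM in CX01. This is 5.15-fold higher in CX01F (log2 2.36, SE 0.0416, adjusted p = 5.04e-16), and 5.53% of tested genes changed by at least as much. PRX1, the mitochondrial peroxiredoxin, which has a single catalytic cysteine, had 297, 301 and 294 CPM in CX01F and 347, 341 and 369 CPM in CX01. It was lower in all CX01F libraries by 1.18-fold (log2 -0.24, SE 0.0309, adjusted p = 3.39e-06). The size of this fall rests on the scaling, with a log2 of -0.45 when libraries were scaled by size only.

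Per kilobase (kb) of coding sequence, which allows levels of different genes to be compared, TSA1 was 69.0% ± 0.586 of the summed peroxiredoxin level in CX01F and 43.2% ± 0.0862 in CX01 (SD, n = 3 each). AHP1 made up 9.82% ± 0.233 in CX01F and 32.0% ± 0.347 in CX01. PRX1 made up 14.8% ± 0.336 in CX01F and 22.2% ± 0.281 in CX01. DOT5 held 4.75% ± 0.0237 in CX01F and 1.17% ± 0.0576 in CX01, and TSA2 held 1.65% ± 0.0216 in CX01F and 1.41% ± 0.0352 in CX01. These shares are taken within a library and do not depend on the scaling between libraries. TSA1 thus took a larger share of the family in every CX01F library than in any CX01 library, and AHP1 and PRX1 took smaller ones.

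**Figure D2:**
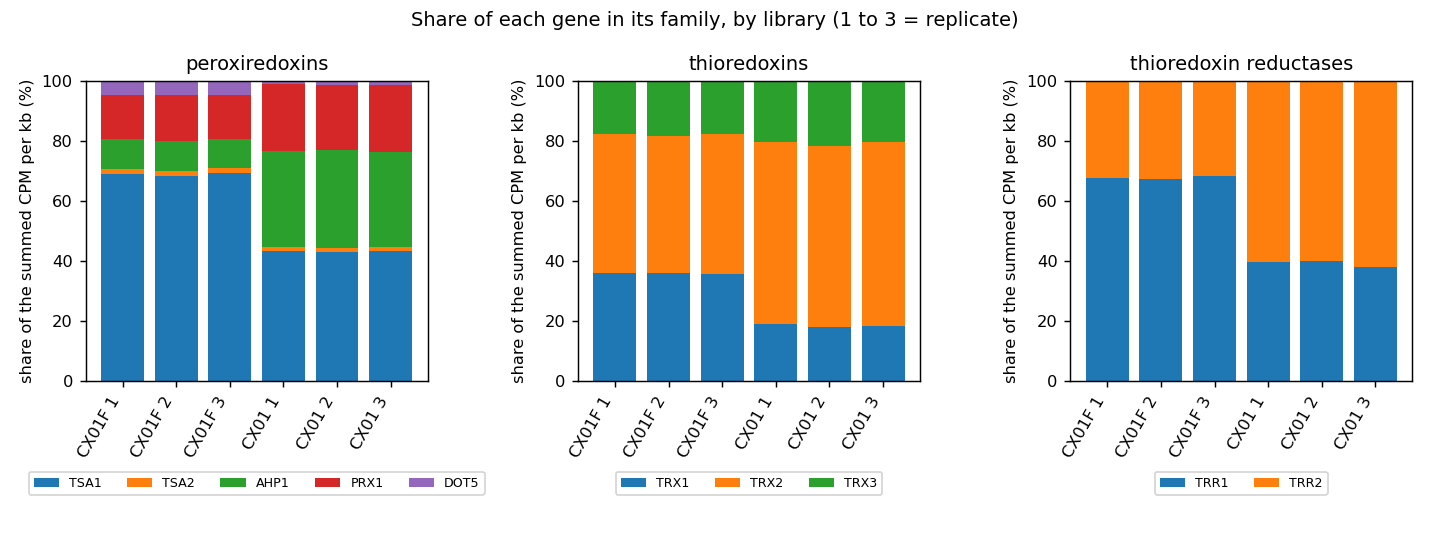
Share of each gene in the summed level of its family, in percent of CPM per kb of coding sequence, for each library, with the 3 CX01F libraries left of the 3 CX01 libraries. In CX01F TSA1 is 68.3% to 69.5% of the peroxiredoxins, against 43.1% to 43.3% in CX01, and TRR1 is 67.2% to 68.3% of the thioredoxin reductases, against 38.0% to 39.9% in CX01.

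The cytosolic thioredoxins TRX1 and TRX2 reduce peroxiredoxins, methionine sulfoxide reductases, ribonucleotide reductase and PAPS reductase. TRX1 had 178, 170.4 and 173 CPM in CX01F and 83.3, 74.6 and 81.3 CPM in CX01. It was 2.18-fold higher in CX01F (log2 1.13, SE 0.0368, adjusted p = 5.05e-13), with no overlap between the strains. TRX2 is known in yeast as the thioredoxin gene induced by peroxide through Yap1, and its window above held both orientations of TTACTAA. The other members with a Yap1 motif in that window, TSA2 and TRR1, were higher in CX01F (log2 0.57 and 1.85). TRX2 had 229, 218 and 229 CPM in CX01F and 264, 252 and 274 CPM in CX01. It was 1.17-fold lower (log2 -0.22, SE 0.0329, adjusted p = 1.52e-05), and the log2 change was -0.43 with library size only, -0.37 with upper-quartile scaling and -0.34 without the genes of chromosomes XI and XV.

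The pair thus moved in opposite directions. Per kb, the TRX2 to TRX1 ratio within a library was 1.28, 1.27 and 1.31 in CX01F and 3.14, 3.34 and 3.33 in CX01. TRX2 remained the more abundant of the pair in every library, by a margin that was smaller in CX01F. The log2 ratio differed by -1.35 (CX01F minus CX01), and an exact permutation test gave a two-sided p of 0.1, the smallest that 3 against 3 libraries allow. The coding sequences of TRX2 and TRX1 were 73.5% identical, with a longest shared run of 17 bases.

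TRX3, the mitochondrial thioredoxin, had 107, 106 and 106 CPM in CX01F and 109, 109.6 and 111 CPM in CX01. The CX01F libraries lay just below the CX01 libraries, and the difference did not pass the test (log2 -0.05, SE 0.0253, adjusted p = 0.0946). It did pass with library size only (log2 -0.25), with upper-quartile scaling (-0.19) and without the genes of XI and XV (-0.16). TRX3 made up 17.9% ± 0.234 of the summed thioredoxin level per kb in CX01F and 20.8% ± 0.671 in CX01. For TRX1 the shares were 36.0% ± 0.268 in CX01F and 18.5% ± 0.583 in CX01, and for TRX2 46.1% ± 0.400 in CX01F and 60.7% ± 0.499 in CX01.

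Of the thioredoxin reductases, which pass electrons from NADPH to thioredoxin, the cytosolic TRR1 had 280.0, 272 and 287 CPM in CX01F and 79.9, 80.1 and 73.4 CPM in CX01. TRR1 was 3.59-fold higher in CX01F (log2 1.85, SE 0.0354, adjusted p = 1.23e-15), the largest rise among the cytosolic members, and 10.8% of tested genes changed by at least as much. TRR2, its mitochondrial counterpart, had 143, 142 and 143 CPM in CX01F and 129, 129 and 128 CPM in CX01. It was 1.11-fold higher with TMM scaling (log2 0.15, SE 0.0240, adjusted p = 4.69e-05), but the direction rests on the scaling, with a log2 of -0.061 for library size only and -0.0021 for upper-quartile scaling. Their coding sequences were 71.2% identical, with a longest shared run of 20 bases.

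The order of the reductases differed between the strains. Per kb, TRR1 stood at 291 ± 7.55 CPM and TRR2 at 139 ± 0.260 CPM in CX01F, while TRR1 stood at 81.1 ± 3.99 CPM and TRR2 at 125 ± 0.556 CPM in CX01 (SD, n = 3 each). The mitochondrial gene was thus the less abundant of the pair in each CX01F library and the more abundant in each CX01 library. Summed per kb, the reductases came to 0.278 ± 0.00373 of the level of the 3 thioredoxins in CX01F and 0.150 ± 0.00817 in CX01.

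**Figure D3:**
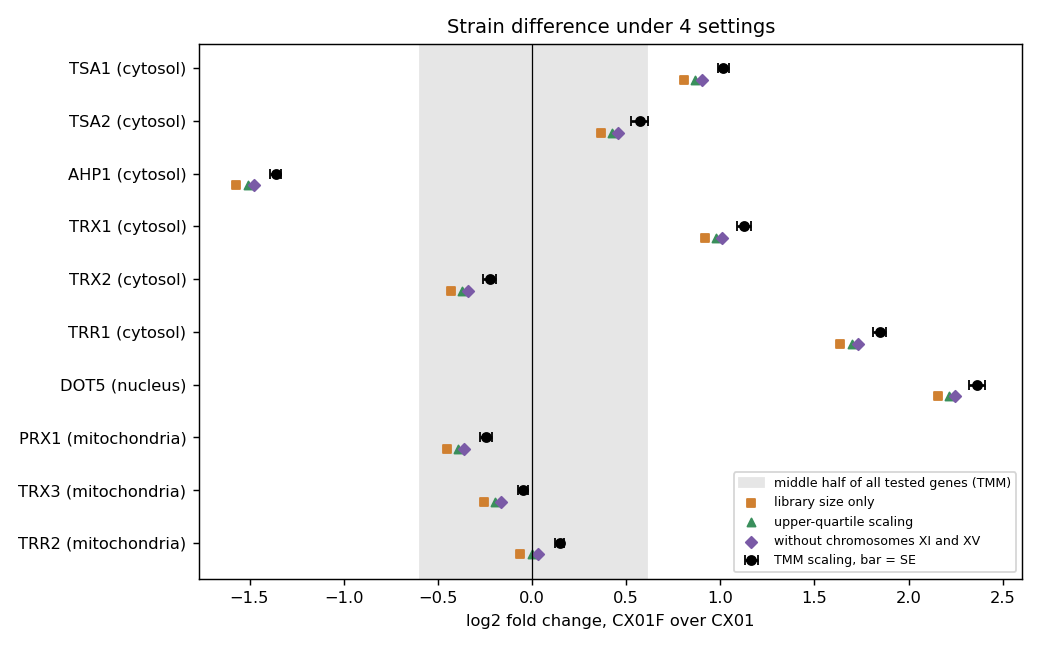
Log2 fold change of each gene, CX01F over CX01, with TMM scaling (black, bars are SE) and with library size only, upper-quartile scaling or without the genes of chromosomes XI and XV; the grey band spans the quartiles of all tested genes with TMM scaling, -0.60 to 0.61. DOT5, TRR1, TRX1, TSA1 and AHP1 lie outside the band under each of these settings. The mitochondrial genes lie inside it, as do the cytosolic genes TSA2 and TRX2. TRR2 lies to the left of 0 under library size only and upper-quartile scaling.

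Set against each other, the sizes of change overlapped between the compartments. Among the cytosolic genes the absolute log2 changes ran from 0.225 (TRX2) to 1.85 (TRR1). The largest of the 3 mitochondrial genes was 0.244, that of PRX1, which is larger than that of cytosolic TRX2, and 22.1% of all tested genes changed by no more than this. This limit rests on the scaling: the change of PRX1 was 0.451 in size with library size only, larger than those of TRX2 and TSA2, and 36.9% of tested genes changed by no more. With upper-quartile scaling it was 0.392 (33.1% of tested genes). TSA1, AHP1, TRX1 and TRR1 changed by more than any mitochondrial member under each of these scalings. Together the mitochondrial members were 17.5% ± 0.304 of the summed level per kb of the 10 genes in CX01F and 23.9% ± 0.166 in CX01. The cytosolic members held 0.175% ± 0.00328 of all counts in CX01F and 0.139% ± 0.00337 in CX01. With 3 mitochondrial genes chosen by name, this is a description of these genes, and no test of the compartments was made.

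Ratios within a library put each mitochondrial gene beside a cytosolic partner without any scaling. The TRR2 to TRR1 ratio per kb was 0.475, 0.488 and 0.465 in CX01F and 1.51, 1.51 and 1.63 in CX01, a log2 difference of -1.70. The TRX3 to TRX1 ratio was 0.490, 0.503 and 0.499 in CX01F and 1.06, 1.19 and 1.11 in CX01, a log2 difference of -1.17. Both ratios were below 1 in every CX01F library and above 1 in every CX01 library. The PRX1 to TSA1 ratio was 0.213, 0.222 and 0.209 in CX01F and 0.514, 0.508 and 0.519 in CX01 (log2 difference -1.26). Against AHP1 the mitochondrial gene gained instead, with PRX1 to AHP1 ratios of 1.50, 1.51 and 1.51 in CX01F and 0.697, 0.677 and 0.709 in CX01 (log2 difference 1.12). TRX3 to TRX2 differed least, at 0.385, 0.397 and 0.382 in CX01F and 0.338, 0.357 and 0.333 in CX01 (log2 difference 0.18). Of 8 ratios compared, all 8 separated the strains without overlap, each with an exact permutation p of 0.1 (two-sided, also 0.1 after Benjamini-Hochberg adjustment), the smallest this design can give. Among single tested genes 91.9% separated the strains, so the number of ratios that did says little about these pairs. The share over other pairs of genes was not computed. The other 2 of these 8 besides TRX2 to TRX1 had log2 differences of -0.45 (TSA2 to TSA1) and 1.35 (DOT5 to TSA1).

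**Figure D4:**
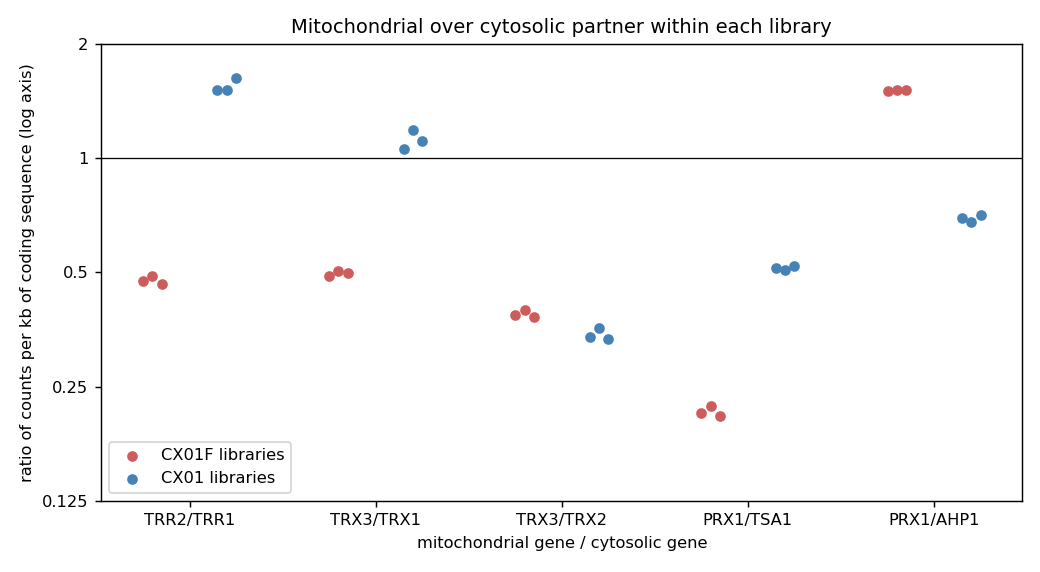
Ratio of counts per kb of coding sequence of a mitochondrial gene over a cytosolic one in each library, on a log axis, with CX01F points left of CX01 points in each pair. TRR2/TRR1 and TRX3/TRX1 lie below 1 in CX01F (0.465 to 0.503) and above 1 in CX01 (1.06 to 1.63), and PRX1/AHP1 lies the other way round.

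The order of levels per kb ran TSA1, TRX2, TRX1, PRX1, TRR1, TRX3, AHP1, TRR2, DOT5 and TSA2 in CX01F, with no overlap between neighbours. In CX01 it ran TSA1, TRX2, AHP1, PRX1, TRX3, TRX1, TRR2, TRR1, TSA2 and DOT5. There, TSA1 (872 ± 27.7 CPM per kb) and TRX2 (836 ± 35.3) overlapped, and the other neighbours did not. TSA1 and TRX2 were thus the most abundant of the set in both strains. Among 5853 tested genes with a coding length, TSA1 ranked 68 in CX01F and 125 in CX01, DOT5 ranked 1622 in CX01F and 4928 in CX01, and AHP1 ranked 808 in CX01F and 203 in CX01.

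Of 7 genes that sense peroxide or regulate the response, 5 were lower and 2 higher in CX01F. Over all tested genes, 45.9% were called lower and 45.5% higher. The median log2 change of the 7 was -0.45, beside -0.0020 over all tested genes. MSN4, on chromosome XI and named after its values were seen, was among the 5, and without XI and XV 4 were called lower. The 2 called higher were not called higher with library size only, upper-quartile scaling or without XI and XV. YAP1, the transcription factor that activates several of the 10 genes under peroxide stress, had 495, 482 and 488 CPM in CX01F and 949, 951 and 940.5 CPM in CX01 (log2 -0.95, SE 0.0251, adjusted p = 4.07e-14). MSN2, a general stress factor that binds AGGGG, had 93.0, 99.2 and 98.8 CPM in CX01F and 169, 174 and 168 CPM in CX01 (log2 -0.81, SE 0.0303, adjusted p = 2.33e-12). Transcript levels of these regulators do not measure their activity, which depends on oxidation and nuclear localisation.

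Among 6 enzymes that draw on thioredoxin or repair peroxiredoxins, 5 were higher and 1 lower, with a median log2 change of 0.67. Of all tested genes, 45.5% were called higher and 45.9% lower. RNR1, the main large subunit of ribonucleotide reductase, rose 5.19-fold, to 252, 260.3 and 252 CPM in CX01F, against 47.8, 51.3 and 47.9 CPM in CX01 (log2 2.38, SE 0.0326, adjusted p = 3.74e-17). RNR3, its minor paralog, known to be induced by DNA damage, was 3.47-fold lower, at 34.6, 35.0 and 33.9 CPM in CX01F and 117, 122 and 120.3 CPM in CX01 (log2 -1.80, SE 0.0308, adjusted p = 3.8e-16). The 4 others were named after their values were seen. SRX1, on chromosome XI, the sulfiredoxin that reactivates overoxidised TSA1, was at log2 0.77, the methionine sulfoxide reductases MXR1 and MXR2 at 0.61 and 0.72, and MET16, the PAPS reductase, at 0.59, and all 4 passed the test.

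The glutathione system, the other thiol route of the cell, had 11 higher and 2 lower of 14, with a median log2 change of 0.48. Of all tested genes, 45.5% were called higher and 45.9% lower. With library size only and with upper-quartile scaling, 9 of the 14 were called higher and 4 lower. GSH1, which makes gamma-glutamylcysteine, rose 12.7-fold, to 5301, 5604 and 5299 CPM in CX01F against 437, 447 and 389 CPM in CX01 (log2 3.67, SE 0.0506, adjusted p = 3.98e-17). GPX1, a glutathione peroxidase on chromosome XI, had 43.2, 44.1 and 44.3 CPM in CX01F and 341, 329 and 361 CPM in CX01, 7.83-fold lower (log2 -2.97, SE 0.0365, adjusted p = 1.37e-17). GLR1, the glutathione reductase, was at 0.43, and HYR1, the peroxidase that oxidises Yap1, at 0.53, both named after their values were seen. Of 6 catalases, superoxide dismutases and their partners, 3 were higher and 3 lower, with a median of -0.10. This split is near that of all tested genes. With library size only, 2 were called higher and 4 lower. The 3 higher were SOD1, SOD2 and CCS1, at log2 0.86, 1.22 and 0.13, all named after their values were seen. CTT1, the cytosolic catalase, was 10.9-fold lower, at 14.2, 15.5 and 15.8 CPM in CX01F and 163, 170.0 and 164 CPM in CX01 (log2 -3.45, SE 0.0399, adjusted p = 8.59e-18). CCP1, the mitochondrial cytochrome c peroxidase, also on XI, had 101, 109 and 105 CPM in CX01F and 349, 366 and 359 CPM in CX01 (log2 -1.77, SE 0.0315, adjusted p = 5.64e-16).

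NADPH is the reductant of TRR1 and TRR2. Of 12 genes listed for NADPH supply, 9 were higher and 3 lower, with a median log2 change of 0.67. With library size only and with upper-quartile scaling, 7 were called higher and 4 lower. Without the genes of chromosomes XI and XV, 7 were called higher and 3 lower. IDP2, the cytosolic NADP-dependent isocitrate dehydrogenase, had 2275, 2232 and 2286 CPM in CX01F and 301, 302 and 308 CPM in CX01 (log2 2.90, SE 0.0281, adjusted p = 2.06e-18). IDP1, its mitochondrial counterpart, had 473, 483 and 478 CPM in CX01F and 121, 122 and 119.98 CPM in CX01 (log2 1.98, SE 0.0253, adjusted p = 1.93e-17). Both were higher in every CX01F library than in any CX01 library. No set test was made of these lists, and 45.5% of all tested genes were called higher and 45.9% lower.

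**Figure D5:**
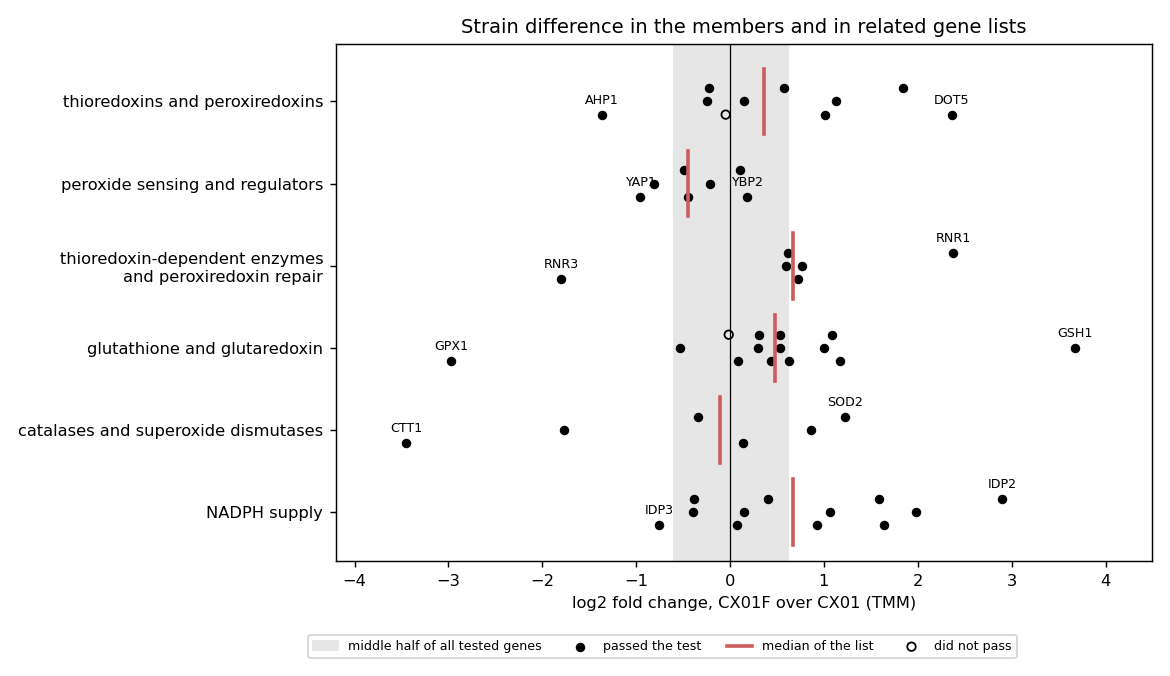
Log2 fold change, CX01F over CX01, of each gene in the set and in 5 related lists; filled points passed the edgeR test, open points did not, red lines are list medians and the grey band spans the quartiles of all tested genes (-0.60 to 0.61). Labels mark the lowest and highest gene of each list, such as CTT1 at -3.45 and GSH1 at 3.67.

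By the root-mean-square distance between log2 CPM profiles centred over the 6 libraries, the genes closest to TSA1 were ELO1 (distance 0.0116) and GRX3 (0.0174), out of 5482 genes compared. Those closest to TRX2 were MHO1 (0.0183) and CHZ1 (0.0183), and those closest to TRR1 were PRS3 (0.0165) and CBF5 (0.0189). With 2 strains, such likeness mostly reflects a strain difference of like size: 306 genes lay within 0.1 of TSA1, 837 within 0.1 of TRX2 and 124 within 0.1 of TRR1.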

How the data were processed

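RNA-seq libraries of 3 CX01F and 3 CX01 cultures were measured. The authors deposited raw read counts per gene, 1 column per library, not normalized; per the submitters' processing notes TopHat2 2.0.12, Cufflinks, featureCounts and Subread 1.4.6 were used, with no roles stated. The genome build, strand setting and treatment of multi-mapping reads are not given in the sources used here. A row without a gene name, 0.00877% to 0.00916% of the counts in CX01F and 0.0392% to 0.044% in CX01, was left out.

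In R 4.3.3, edgeR 4.0.16 kept genes passing filterByExpr (minimum count 10, minimum total 15; 6129 of 6400), scaled libraries by TMM and tested CX01F against CX01 with the quasi-likelihood test, two-sided, strain only, 4 residual degrees of freedom, Benjamini-Hochberg over all tested genes, called at 0.05. DESeq2 1.42.0 and limma 3.58.1 (voom) were alternatives. The fits were tested on simulated data in which few genes changed, as many up as down. This does not cover a strain difference at most genes, as here. CPM are on the TMM-scaled library size; CPM per kb divides by the R64 coding length, since the counted exons are not given. Exact permutation tests used scipy 1.17.1. R64 names matched 6083 genes. p-values measure the spread among these cultures; any difference in handling cannot be told apart from strain. The limit for a count of 0 is 3 counts, given as CPM of the unscaled library total, and covers counting error only.

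The members, lists and tests were chosen with earlier results of these data known. Named were all members, 3 genes of the genotype label (PEX31, PEX32 and MDH2, the last with 6951 CPM on average in CX01F, against 376 CPM in CX01), the 2 called genes of largest change at 10 CPM or more in each list, and the 2 nearest profiles of TSA1, TRX2 and TRR1. The other names in that label were not analysed here.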

Additional observations from a re-analysis of the deposited data

How the results depend on the processing

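All alternatives are recorded as planned, though the tests were chosen with earlier results of these data known. Relative to TMM, the median log2 change of all genes shifted by -0.207 with library size only, -0.148 with upper-quartile scaling and -0.116 without the genes of chromosomes XI and XV, and by at most 0.00445 in size under the others. Under these 3 settings TRX3 was called, at log2 -0.25, -0.19 and -0.16. TRR2 turned to -0.061 and -0.0021 under the first 2 and lost its call at 0.030 under the third. Mitochondrial members then numbered 0 higher under all 3, and 3, 2 and 2 lower; all members called lower numbered 5 with library size only. Members with an absolute log2 change of at least 1 numbered 3 under the first 2 (5 with TMM). Peroxide regulators called higher fell to 0 under all 3, and glutathione genes called lower numbered 4 under the first 2. By construction, these settings change the scaling factors and so shift all genes together, and the ratios within a library carry none of this. Of 140 values of the members, 134 kept direction and call. All 138 values of the 10 related genes named for the largest changes of their lists did so too. That choice favoured such a result. For the related genes named after their values were seen, single-gene values under the other settings are not given here. GPX1 and CCP1, on XI, have no value without XI and XV. All 56 values of the ratios kept their direction. Leaving out 1 library gave ranges of 1.00 to 1.04 for TSA1, -1.38 to -1.34 for AHP1, 1.81 to 1.87 for TRR1, 2.32 to 2.40 for DOT5 and 0.14 to 0.15 for TRR2. DESeq2 called 5553 genes and limma voom 5599. A replicate block gave 5619 called genes and every member kept its call (TRX3 adjusted p = 0.0934). Same-numbered libraries correlated at -0.00975, 0.153 and 0.0205 in their deviations, not all above 0.1. The value of 0.153, for replicate 2, was the highest of any pair between the strains. CX01F replicate 1 correlated best with CX01 replicate 3 (0.0711). These few small values show no consistent pairing by number and cannot exclude one. Depth limits no member, since the lowest count was 789.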
